A study of Mus musculus with 8 samples.

Results

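The GIMAP genes encode the GTPases of immunity-associated proteins, a family of membrane-associated GTPases of lymphocytes. The 8 genes were taken by name from a table of 47069 genes measured by RNA-Seq, as Gimap1, Gimap3, Gimap4, Gimap5, Gimap6, Gimap7, Gimap8 and Gimap9, and each name had 1 row. One further row, the antisense transcript Gimap1os, was not counted as a member. The libraries were made from OT-I T cells, CD8 T cells that carry a transgenic receptor for an ovalbumin peptide, which came from the lymph nodes of mice labelled wild type. In 4 libraries, called OVA-T4 + TGFβ, the cells had received 10 nM of SIITFEKL, a low affinity variant of that peptide, and 5 ng/ml of recombinant TGFβ for 24 hours. The other 4, called OVA-T4, received the peptide alone. The study's methods name both OT-I and OT-I Rag1-/- mice without assigning them to these libraries, and state that the mice were young adults matched for age and sex. For lymph nodes of OT-I Rag1-/- mice they report that the great majority of prepared cells were typically CD8 T cells. They describe no sorting step, so each value is an average over all cells of a culture.

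GIMAP proteins bind and hydrolyse GTP, and several sit on membranes of lysosomes, mitochondria or the endoplasmic reticulum. They are best known for keeping T cells alive: mice without Gimap1 or Gimap5 lose mature lymphocytes. In T cells their transcripts are part of the resting programme, and the genes are also expressed in B cells, NK cells and endothelium. TGFβ acts through receptor serine/threonine kinases and SMAD transcription factors and restrains the activation of CD8 T cells. The comparison asks how these transcripts differed when the same low affinity stimulus was given with TGFβ.

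Among the 8 genes, TGFβ went with lower transcript levels of Gimap7, Gimap6, Gimap5 and Gimap1 and with a higher level of Gimap8, while Gimap3, Gimap4 and Gimap9 did not pass the test. Gimap7 stood apart in size, at 0.309 of its OVA-T4 mean. The next lower, Gimap6 and Gimap5, were at 0.663 and 0.726, and Gimap8 was at 1.51 times its OVA-T4 mean. The test was limma on log2(FPKM + 0.5), two-sided, with n = 4 in each group and Benjamini-Hochberg adjustment over the 12879 genes that averaged 0.5 FPKM or more. FPKM counts fragments relative to the length of the transcript and the size of the library, and a gene was called at an adjusted p under 0.05. All 8 GIMAP genes passed the filter on low values.

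Counted together, 5 of the 8 genes were called, 1 higher and 4 lower, and the median log2 fold change of the 8 was -0.17, against 0.08 over all genes tested. Much of the transcriptome differed between the groups, since 51.0% of all genes tested were called, 30.7% as higher and 20.2% as lower. With both directions pooled, the share of GIMAP genes called was therefore near that of all genes. By direction it was less alike, with 4 of 8 lower against 20.2% and 1 of 8 higher against 30.7%. With 8 genes these shares are coarse, and the difference was not tested. Past a 1.5-fold change, 1 GIMAP gene was higher and 2 were lower, where 13.7% of all genes tested were higher and 6.07% lower by that much. Gimap8 (0.59) and Gimap6 (-0.59) lay only just past this fold: Gimap8 was within it, leaving 0 higher, without OVA-T4 + TGFβ replicate 1 or 4 or OVA-T4 replicate 2 or 3 (0.51 to 0.54) and after scaling by the median of ratios (0.49). Gimap6 was within it, leaving 1 lower, without OVA-T4 + TGFβ replicate 2 or 3 or OVA-T4 replicate 1 or 4 (-0.56 to -0.53), with TPM scaling (-0.56) and with quantile normalization (-0.50). For 5 of the 8 genes the 2 sets of libraries did not overlap, as for 48.1% of all genes tested. Of all called genes, 60.3% were higher, and this share was 47.5% after scaling by the median of ratios and 46.8% after quantile normalization, which shifted the median of all genes by -0.09 and -0.11 on the log2 scale.

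**Figure D1:**
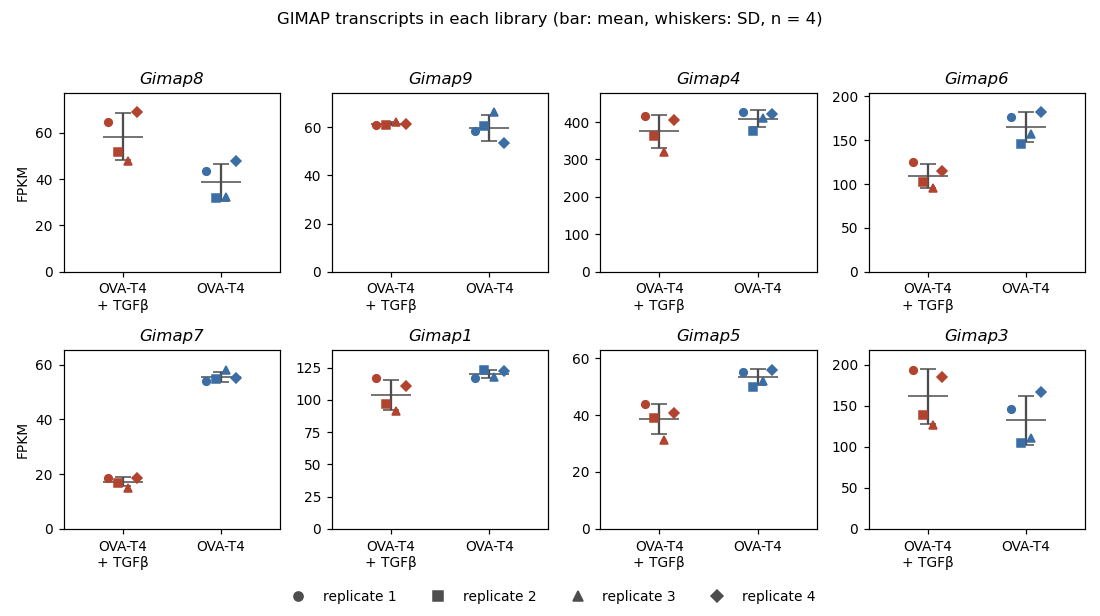
FPKM (vertical axis, from 0) of each GIMAP gene in the 4 OVA-T4 + TGFβ libraries (red, left) and the 4 OVA-T4 libraries (blue, right), with the mean as a bar and the SD as whiskers; symbols mark replicate numbers. The Gimap7 libraries sit at 15.0 to 18.5 with OVA-T4 + TGFβ and at 54.0 to 58.2 with OVA-T4, and those of Gimap8 at 48.0 to 68.8 and 31.6 to 47.6.

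The 8 genes form 1 cluster of 123.6 kb on mouse chromosome 6 (GRCm38, chr6:48647234-48770851). In the order of the chromosome they are Gimap8, Gimap9, Gimap4, Gimap6, Gimap7, Gimap1, Gimap5 and Gimap3. Gimap6 and Gimap3 lie on the minus strand and the other 6 on the plus strand. The members that fell (Gimap6, Gimap7, Gimap1 and Gimap5) lie next to one another, between Gimap4 and Gimap3. The unbroken run needs Gimap1, whose call was lost in 10 of 19 alternative settings. Gimap4, which was not called, also had a negative log2 fold change in all 19. Gimap8 and Gimap3, whose log2 fold changes of 0.59 and 0.29 were the highest of the family, form its outer ends, although only Gimap8 passed the test. This is a description of position in 1 cluster and was not tested.

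The 250 bases before the start site are shown for Gimap7, Gimap8 and Gimap3, the gene with the largest difference and the genes at both ends of the cluster, since these letters are where promoter motifs were searched. The sequences are from RefSeq (GRCm38.p6), 5′ to 3′ on the strand of the gene, and of the 2 windows annotated for Gimap8 the first is shown. Capitals mark matches on either strand to CAGAC (a SMAD motif), TGTGGT (RUNX) or TGTTTAC (forkhead).
Gimap7 (chr6:48718371-48718620, plus strand): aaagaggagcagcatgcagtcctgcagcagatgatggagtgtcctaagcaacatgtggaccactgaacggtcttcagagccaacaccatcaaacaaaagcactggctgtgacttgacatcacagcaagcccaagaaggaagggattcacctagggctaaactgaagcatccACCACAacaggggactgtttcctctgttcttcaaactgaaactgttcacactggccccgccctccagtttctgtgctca
Gimap8 (chr6:48646984-48647233, plus strand): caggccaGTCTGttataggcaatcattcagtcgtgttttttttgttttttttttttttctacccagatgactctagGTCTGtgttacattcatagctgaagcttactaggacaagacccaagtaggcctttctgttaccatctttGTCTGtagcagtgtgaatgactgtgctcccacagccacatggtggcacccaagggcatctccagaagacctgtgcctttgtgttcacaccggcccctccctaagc
Gimap3 (chr6:48770852-48771101, minus strand): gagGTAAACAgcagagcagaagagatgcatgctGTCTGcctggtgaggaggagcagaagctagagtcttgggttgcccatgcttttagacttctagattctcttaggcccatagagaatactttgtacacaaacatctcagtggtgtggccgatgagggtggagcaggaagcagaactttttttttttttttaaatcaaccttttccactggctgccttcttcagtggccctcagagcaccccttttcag
Within windows of 300 bases that run to 50 bases past the start, CAGAC on either strand was present for Gimap3, Gimap5, Gimap8 and Gimap9, with 3 copies in the Gimap8 window shown, and 49.6% of the 32851 mouse promoter windows of this length hold it. TGTGGT was present for Gimap1, Gimap4 and Gimap7, against 16.8% of all windows, and TGTTTAC for Gimap3, against 3.65%. GGGTG, a KLF motif left in lower case, was present for Gimap3, Gimap4, Gimap5, Gimap8 and Gimap9, against 57.5% of all windows. The letters GGCGC (SMAD), CCGGAA (ETS), CACGTG (E-box) and CTTTGAT (TCF/LEF), which 36.9%, 14.9%, 7.15% and 3.73% of all windows hold, matched no GIMAP window. These are matches of letters and do not show binding.

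Gimap7 (ENSMUSG00000043931, chr6:48718621-48724636) encodes a small GIMAP protein with a single GTPase domain, and its human counterpart is known to stimulate the GTPase activity of GIMAP2. Gimap7 had 18.5, 16.7, 15.0 and 18.4 FPKM in the OVA-T4 + TGFβ libraries, against 54.0, 54.6, 58.2 and 55.1 FPKM in the OVA-T4 libraries. Every library with TGFβ lay far below every library without it, and the spread within a group was small (17.2 ± 1.67 with OVA-T4 + TGFβ and 55.5 ± 1.86 with OVA-T4, SD, n = 4 each). The log2 fold change was -1.67 (SE 0.07, 95% confidence interval -1.83 to -1.51, limma adjusted p = 5.28e-07), and only 0.163% of all genes tested had a lower value. Under 19 alternative settings it ranged from -1.77 to -1.61. The values rest on 666, 535, 531 and 593 reads with OVA-T4 + TGFβ and 1857, 1758, 2170 and 2062 reads with OVA-T4, as solved from the FPKM values.

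The product of Gimap6 (ENSMUSG00000047867, chr6:48701582-48708225) binds the ATG8-family protein GABARAPL2 and takes part in autophagy. Gimap6 had 125.3, 102.2, 95.1 and 115.4 FPKM with OVA-T4 + TGFβ, against 176.9, 145.2, 156.8 and 181.8 FPKM with OVA-T4. The groups did not overlap, and in both of them replicates 1 and 4 were the highest. On the log2 scale the fold change was -0.59 (SE 0.10, 95% confidence interval -0.82 to -0.37, limma adjusted p = 0.00108).

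Gimap5 (ENSMUSG00000043505, chr6:48746197-48754210) is the member whose loss in mice and rats costs the animal much of its peripheral T cells, and it has been placed on lysosomal membranes and upstream of the kinase GSK3β. Its FPKM was 43.8, 39.0, 31.3 and 40.6 with OVA-T4 + TGFβ, against 55.2, 50.0, 52.1 and 56.0 with OVA-T4. The highest library with TGFβ was below the lowest without it, and replicate 3 was the lowest with TGFβ. This gave a log2 fold change of -0.47 (SE 0.10, 95% confidence interval -0.68 to -0.25, limma adjusted p = 0.00323). Gimap5, Gimap6 and Gimap7 stayed past the threshold in all of the 19 alternatives.

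Gimap1 (ENSMUSG00000090019, chr6:48739054-48743795) is required for the survival of mature T and B cells in mice. Gimap1 reached 116.6, 96.9, 91.0 and 110.8 FPKM with OVA-T4 + TGFβ, against 117.1, 123.5, 117.5 and 122.2 FPKM with OVA-T4. The groups did not overlap but nearly touched, with replicate 1 almost equal in both, and the libraries with TGFβ were the more spread (103.9 ± 11.9 against 120.1 ± 3.25, SD, n = 4 each). Its log2 fold change of -0.22 (SE 0.08, 95% confidence interval -0.39 to -0.04) was called with a limma adjusted p of 0.0419. The call is weak: it was kept in 9 of the 19 alternatives, and leaving out OVA-T4 + TGFβ replicate 2 or 3, or any 1 of the OVA-T4 replicates, gave adjusted p values of 0.0633 to 0.104. The antisense transcript Gimap1os covers 1107 of the 3073 exon bases of Gimap1, and whether the counting used strand is not stated. Gimap1os had 1.73, 1.76, 1.69 and 1.51 FPKM with OVA-T4 + TGFβ, against 2.63, 2.24, 3.25 and 2.35 FPKM with OVA-T4, so it too was lower in every TGFβ library, at a level far under that of Gimap1. Without strand, reads of the overlapping bases cannot be assigned to one or the other.

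Gimap8 (ENSMUSG00000064262, chr6:48647234-48660875) encodes the largest member, with several GTPase domains in 1 protein. Gimap8 had 64.8, 51.7, 48.0 and 68.8 FPKM with OVA-T4 + TGFβ, against 43.3, 31.6, 32.1 and 47.6 FPKM with OVA-T4. The lowest library with TGFβ lay just above the highest without it. In both groups replicates 1 and 4 were high and replicates 2 and 3 low. Libraries with the same replicate number thus shared much of the spread, but so did 1 with 4 and 2 with 3. The log2 fold change was 0.59 (SE 0.16, 95% confidence interval 0.23 to 0.96, limma adjusted p = 0.0129), and the log2 differences within replicates 1 to 4 were 0.58, 0.70, 0.58 and 0.53. With the replicate number as a block, a pairing read from these data and not from the labels, the SE was 0.04 and the limma adjusted p 2.80e-05. The values over all genes do not settle that pairing.

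Gimap3 (ENSMUSG00000039264, chr6:48764464-48770851), which in mice influences the segregation of mitochondrial DNA, had 194.1, 139.2, 126.6 and 185.0 FPKM with OVA-T4 + TGFβ, against 145.5, 105.0, 110.2 and 167.3 FPKM with OVA-T4. The groups overlapped, and replicates 1 and 4 were above 2 and 3, as for Gimap4, Gimap5, Gimap6 and Gimap8. The log2 fold change of 0.29 (SE 0.18, 95% confidence interval -0.12 to 0.70) did not pass in the comparison without pairing (limma adjusted p = 0.211). Within replicates 1 to 4 the log2 differences were 0.41, 0.40, 0.20 and 0.14, higher with TGFβ in 4 of 4, and with the replicate number as a block Gimap3 was called higher (SE 0.05, limma adjusted p = 0.00276). The block thus raised the number of GIMAP genes called higher to 2 and left the 4 lower ones as they were. Pairing by replicate number was read from these same data, so the added call depends on it. Gimap3 and Gimap5 transcripts share a stretch of 720 bases that is 97.9% identical, so reads from it could be counted for either gene or dropped, and both values are uncertain to that extent, although their fold changes had opposite signs.

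Gimap4 (ENSMUSG00000054435, chr6:48684549-48692060), which has been linked to the pace of T cell death, was the most abundant member. Its FPKM was 415.6, 361.6, 319.8 and 406.9 with OVA-T4 + TGFβ, against 426.1, 376.9, 411.4 and 421.8 with OVA-T4. The groups overlapped, and replicate 3 was the one where they were farthest apart. The log2 fold change of -0.13 (SE 0.09, 95% confidence interval -0.32 to 0.06, limma adjusted p = 0.238) passed only after scaling by the median of ratios (-0.23, adjusted p = 0.0351).

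Gimap9 (ENSMUSG00000051124, chr6:48676129-48679114) was the least variable member with TGFβ, at 61.0, 60.9, 62.3 and 61.3 FPKM, against 58.5, 60.4, 66.2 and 53.6 FPKM with OVA-T4. The 4 libraries with TGFβ fell inside the range of the others. The log2 fold change of 0.04 (SE 0.06, 95% confidence interval -0.10 to 0.18, limma adjusted p = 0.590) had an interval wholly below the 0.59 of Gimap8, and its sign turned to -0.06 after scaling by the median of ratios and to -0.01 without OVA-T4 replicate 4. Gimap9 and Gimap7 are alike in sequence (71.9% identity over 526 bases) and yet differed in size of change.

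**Figure D2:**
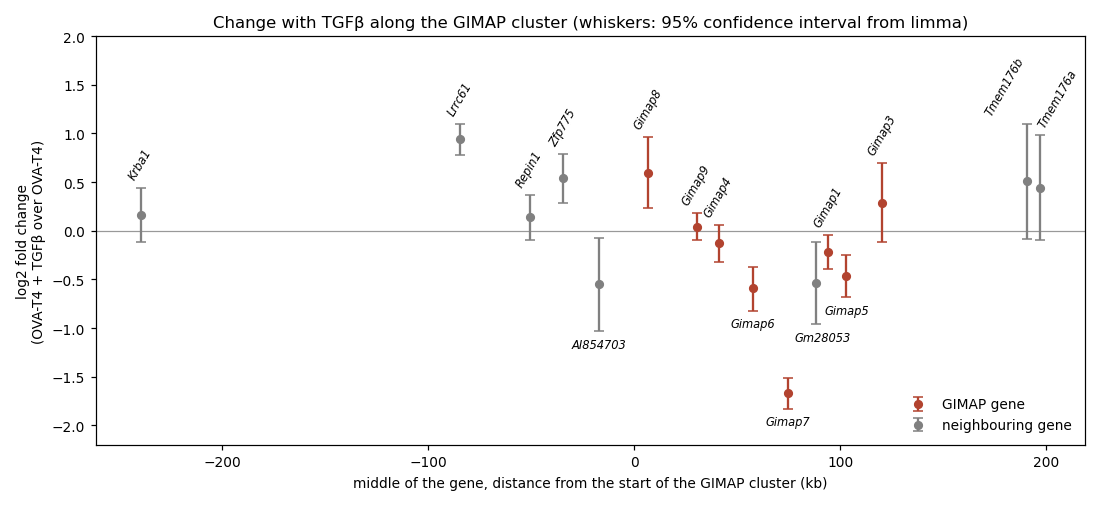
Log2 fold change (OVA-T4 + TGFβ over OVA-T4, vertical axis, whiskers are the 95% confidence interval from limma) of the 8 GIMAP genes (red) and the tested neighbouring genes (grey), placed by the middle of each gene in kb from the start of the cluster. Gimap7, at -1.67, lies lowest, Gimap8 and Gimap3 at the ends of the cluster are at 0.59 and 0.29, and Lrrc61 outside it is at 0.94.

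The summed level of the family was 1039.7, 868.2, 789.1 and 1007.3 FPKM with OVA-T4 + TGFβ, against 1076.6, 947.2, 1004.6 and 1105.5 FPKM with OVA-T4. The ranges overlapped and the ratio of means was 0.896. As a share of the summed FPKM, Gimap7 was 1.86% ± 0.0666 with OVA-T4 + TGFβ and 5.39% ± 0.447 with OVA-T4 (SD, n = 4 each), and Gimap6 was 11.8% ± 0.286 and 16.0% ± 0.573. Gimap8 took 6.28% ± 0.390 with OVA-T4 + TGFβ and 3.71% ± 0.534 with OVA-T4. Gimap3, whose FPKM ranges overlapped, made up 16.0% to 18.7% of the family with OVA-T4 + TGFβ and 11.0% to 15.1% with OVA-T4, without overlap. Gimap4 made up 40.6% of the family with OVA-T4 + TGFβ and 39.6% with OVA-T4. In these bulk libraries, fewer cells that express a gene and less transcript per cell cannot be told apart.

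**Figure D3:**
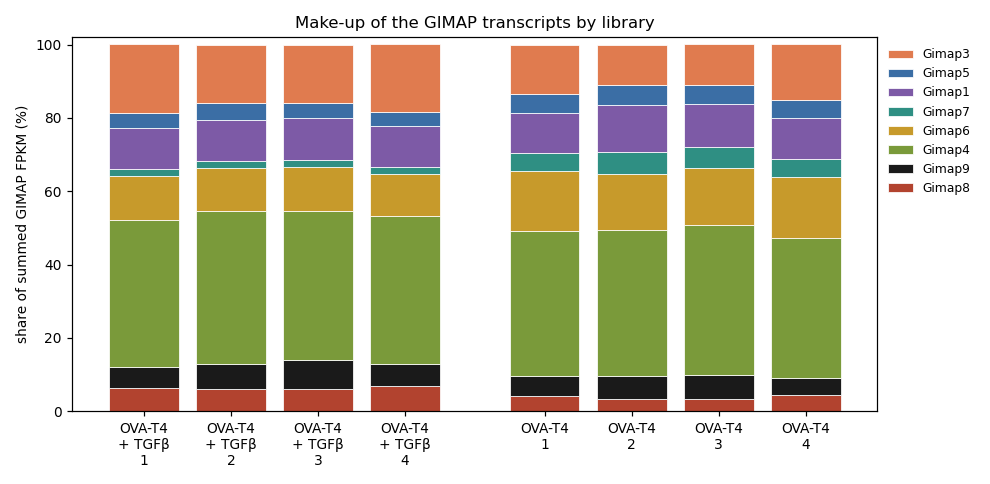
Share of the summed GIMAP FPKM (vertical axis, percent) taken by each of the 8 genes in every library, with the OVA-T4 + TGFβ libraries on the left and the OVA-T4 libraries on the right; the colours of a bar stand for the genes and add up to 100. The band of Gimap7 averages 1.86% with OVA-T4 + TGFβ and 5.39% with OVA-T4, and that of Gimap3 17.3% and 12.7%.

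By level in FPKM, the order with OVA-T4 + TGFβ was Gimap4 (376.0 ± 44.3), Gimap3 (161.2 ± 33.3), Gimap6 (109.5 ± 13.5), Gimap1 (103.9 ± 11.9), Gimap9 (61.4 ± 0.624), Gimap8 (58.3 ± 10.0), Gimap5 (38.7 ± 5.30) and Gimap7 (17.2 ± 1.67, SD, n = 4). Gimap6 and Gimap1 overlapped in range, as did Gimap9 and Gimap8, and the other neighbours in this order did not. With OVA-T4 it was Gimap4 (409.0 ± 22.3), Gimap6 (165.2 ± 17.2), Gimap3 (132.0 ± 29.6), Gimap1 (120.1 ± 3.25), Gimap9 (59.7 ± 5.21), Gimap7 (55.5 ± 1.86), Gimap5 (53.3 ± 2.79) and Gimap8 (38.6 ± 8.04). Here Gimap6, Gimap3 and Gimap1 overlapped in range with their neighbours, as did Gimap9, Gimap7 and Gimap5. The order depends on the length each gene is divided by, which in the deposited values was the mean over annotated transcripts, from 899 bases for Gimap7 to 2959 for Gimap8. With the longest transcript or with all exon bases instead, Gimap4 was still first in both groups and Gimap7 still last with OVA-T4 + TGFβ, while Gimap3 became second in both groups and Gimap5 last with OVA-T4.

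Within each group the members also varied together from library to library. Across the 8 libraries, with the mean of each group removed, the 21 pairs of members without Gimap9 had correlations of 0.46 to 0.98 (median 0.80), and the highest was that of Gimap3 with Gimap8. The 7 pairs with Gimap9 had correlations of -0.69 to 0.14 (median -0.32). These are descriptions over 8 libraries that share scaling and, for the close relatives, sequence. Gimap3 and Gimap8 had the widest swing: replicate 4 with OVA-T4 lay 0.37 and 0.32 above the mean of its group on the log2 scale, and replicate 2 with OVA-T4 lay 0.30 and 0.26 below it.

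**Figure D4:**
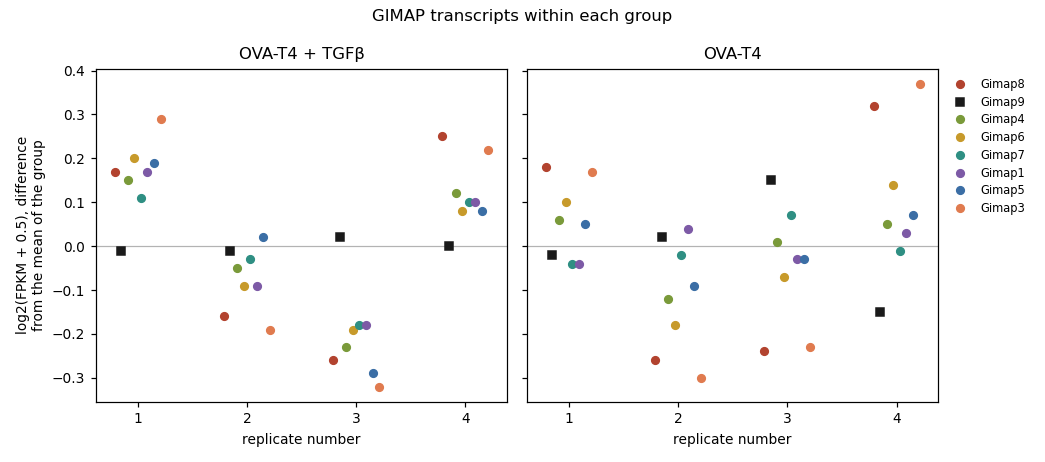
Difference of log2(FPKM + 0.5) from the mean of the group (vertical axis) for each GIMAP gene by replicate number, with OVA-T4 + TGFβ in the left panel and OVA-T4 in the right; Gimap9 is drawn as a black square and the other genes as coloured circles. Gimap3 and Gimap8 lie above 0 in replicates 1 and 4 and below 0 in replicates 2 and 3 of both groups.

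Markers of other cells were read beside these values, because GIMAP genes are expressed outside CD8 T cells. The 6 CD8 T cell markers summed to 2636.5 to 2801.1 FPKM with OVA-T4 + TGFβ and 2055.7 to 2331.5 with OVA-T4, and the CD4 T cell markers to 1.82 to 3.75 and 2.39 to 4.64, so the labelled cell type fitted its markers. The B cell markers summed to 10.3 to 12.2 FPKM with OVA-T4 + TGFβ and 3.86 to 5.23 with OVA-T4, where Cd79a and Cd79b alone passed the filter and both were higher, with Ms4a1 at 0 in every library and Ebf1 under 0.1 FPKM. The 6 macrophage and monocyte markers summed to 42.3, 17.9, 10.7 and 35.6 FPKM with OVA-T4 + TGFβ, against 12.8, 7.15, 4.77 and 12.9 with OVA-T4, none of them at 0 throughout. They were higher in replicates 1 and 4 than in replicates 2 and 3 of each group, an order that Gimap3, Gimap4, Gimap5, Gimap6 and Gimap8 also had in both groups, whatever the sign of their fold change. The CD8 T cell marker sum had the same order. It was 2801.1, 2667.6, 2636.5 and 2786.2 FPKM with OVA-T4 + TGFβ, against 2187.0, 2079.2, 2055.7 and 2331.5 with OVA-T4. This order was thus not particular to markers of other cells. The 4 NK cell markers summed to 1.71 to 5.17 FPKM with OVA-T4 + TGFβ and 0.389 to 3.04 with OVA-T4. Most of this was Tyrobp (1.54 to 4.96 and 0.214 to 2.56). The 6 endothelial and stromal markers summed to 21.7 to 30.5 and 25.4 to 34.3, with Cdh5, Kdr and Tek under 0.1 FPKM. Almost all of that was Pecam1 (21.5 to 30.0 and 24.9 to 33.9). Both sums were highest in replicates 1 and 4 too, but each rests largely on 1 gene and does not show NK or endothelial cells. The 6 dendritic cell markers summed to 2.27 to 3.00 FPKM with OVA-T4 + TGFβ and at most 1.16 with OVA-T4, with Siglech and Clec9a under 0.1 FPKM. Only Itgax passed the filter (1.52 to 2.03 FPKM with OVA-T4 + TGFβ and 0.170 to 0.437 with OVA-T4). Most of the sum with OVA-T4 + TGFβ was thus 1 gene, which does not show dendritic cells. The part of these other cells in the GIMAP values was not tested.

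Of 18 protein-coding genes within 250 kb of the cluster, 8 passed the filter on low values, of which 2 rose and 1 fell, with a median log2 fold change of 0.30. Among all genes tested, 30.7% rose and 20.2% fell, and the median was 0.08. Lrrc61 was at 14.2 ± 1.07 FPKM with OVA-T4 + TGFβ and 7.12 ± 0.245 with OVA-T4 (SD, n = 4 each), a log2 fold change of 0.94 (limma adjusted p = 1.14e-05). Zfp775, a zinc finger gene, was at 2.92 ± 0.247 and 1.85 ± 0.240 FPKM (0.54, limma adjusted p = 0.00340), and its call was lost with quantile normalization (0.27, adjusted p = 0.0895), which left 1 higher neighbour. Gm28053, a gene model that runs over Gimap7, Gimap1 and Gimap5 on their strand and shares 81, 198 and 153 exon bases with them, had 2.67, 2.48, 1.29 and 1.81 FPKM with OVA-T4 + TGFβ, against 3.34, 2.78, 2.85 and 3.68 with OVA-T4. It was lower by -0.54 on the log2 scale (limma adjusted p = 0.0350), and its reads cannot be fully separated from theirs. That call was lost with limma-voom on the solved reads (adjusted p = 0.0588). With no filter on low values, or without OVA-T4 + TGFβ replicate 3, OVA-T4 replicate 1 or OVA-T4 replicate 4, there were 0 lower neighbours, and there were 2 without OVA-T4 replicate 3, with the replicate block, with median of ratios scaling, with quantile normalization or among protein-coding genes alone. Krba1, Repin1, AI854703, Tmem176b and Tmem176a did not pass, at log2 fold changes of 0.16, 0.14, -0.55, 0.51 and 0.44.

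Genes whose proteins are reported to bind or act with GIMAPs, from the BCL2 family, the ATG8 family and their kinases and chaperones, changed in both directions. Of 15 listed and tested, 8 rose and 5 fell, with a median log2 fold change of 0.26. Over all genes tested, 30.7% rose and 20.2% fell, with a median of 0.08. Proteins of the ATG8 family mark forming autophagosomes, which were not measured here. Among the genes of this family, Map1lc3a had 5.73, 5.68, 8.73 and 5.82 FPKM with OVA-T4 + TGFβ, against 3.06, 2.90, 2.74 and 2.15 with OVA-T4 (log2 fold change 1.11, limma adjusted p = 3.48e-04). Gabarap had 151.7, 140.5, 141.9 and 152.5 FPKM with OVA-T4 + TGFβ, against 84.0, 85.5, 81.9 and 95.8 with OVA-T4 (0.75, limma adjusted p = 1.31e-05). Map1lc3b rose by 0.64 (limma adjusted p = 6.37e-05), and Gabarapl2, the partner of Gimap6, had 36.3, 39.5, 42.1 and 33.5 FPKM with OVA-T4 + TGFβ, against 28.2, 27.9, 31.1 and 28.1 with OVA-T4 (0.38, limma adjusted p = 0.00264). Gabarapl2 thus rose where Gimap6 fell, and Gabarapl1 fell by 0.39 on the log2 scale. The largest falls were in Bcl2l11, which encodes the death-promoting protein BIM (43.0 ± 7.02 FPKM with OVA-T4 + TGFβ and 64.8 ± 9.32 with OVA-T4, -0.59, limma adjusted p = 0.00487), in the chaperone gene Hspa8 (-0.54, 5.55e-05) and in Bak1, a pore-forming death effector (-0.41, 9.49e-04). Gsk3b, the kinase placed downstream of Gimap5, was at 26.3 ± 2.02 FPKM with OVA-T4 + TGFβ and 21.9 ± 1.44 with OVA-T4 (0.26, limma adjusted p = 0.0150), a call lost with median of ratios scaling (0.15, adjusted p = 0.129) and with quantile normalization (0.19, adjusted p = 0.0625). Gsk3a did not pass (-0.06). Gabarapl1, Gabarapl2 and the 2 GSK3 genes were chosen after their values were seen.

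The other large GTPase families of immune cells, the interferon-induced guanylate-binding proteins and immunity-related GTPases, gave no single direction either. Of 17 listed, 15 passed the filter, and 5 of these rose and 3 fell, with a median log2 fold change of 0.22. These shares were near those of all genes tested, of which 30.7% rose and 20.2% fell (median 0.08). Gbp8 rose most, with 31.2, 23.1, 21.5 and 30.8 FPKM with OVA-T4 + TGFβ, against 15.6, 9.54, 9.08 and 18.6 with OVA-T4 (1.03, limma adjusted p = 0.00539), and it too was highest in replicates 1 and 4. Gbp2 fell most, with 101.4, 101.0, 92.7 and 120.6 FPKM with OVA-T4 + TGFβ, against 137.5, 147.2, 163.6 and 157.6 with OVA-T4 (-0.54, limma adjusted p = 7.14e-04). With the replicate number as a block 8 rose. Only 3 did with median of ratios scaling, or without OVA-T4 + TGFβ replicate 1, OVA-T4 + TGFβ replicate 4 or OVA-T4 replicate 2. None of the 15 had a log2 fold change as low as that of Gimap7.

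Over the 8 libraries, the 5 protein-coding genes (averaging 1 FPKM or more) whose pattern was most like the mean pattern of the GIMAP genes, of 10162 compared, were Adora2a (Pearson r = 0.983), Fastkd1 (0.972), Mrpl52 (0.970), Gpr174 (0.969) and Gsto1 (0.968). All of them were lower with OVA-T4 + TGFβ, at log2 fold changes of -0.66, -0.54, -0.22, -0.37 and -0.47. The log2 values of the members were centred but not scaled before averaging. Gimap7, at -1.67, therefore weighed most in the difference of this mean between the groups, and other members changed in opposite directions. For single members, a choice made after values were seen, Eomes, a transcription factor gene of effector and memory CD8 T cells, was among the nearest to Gimap7 (0.998, log2 fold change -3.87), Zc3h12d was nearest to Gimap8 (0.998) and Pde3b to Gimap3 (0.981). These correlations describe 8 libraries in 2 groups, so any gene whose fall is large against its spread within the groups comes close to Gimap7. Wdr73, for example, had r = 0.998 with Gimap7 at a log2 fold change of -0.54.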

How the data were processed

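RNA-Seq libraries of oligo(dT)-selected RNA were compared, 4 OVA-T4 + TGFβ and 4 OVA-T4, grouped by the sample titles, which call them biological replicates. The deposited unit is FPKM, computed by the authors for every library in 1 table. CASAVA, HISAT2, HTSeq and build mm10 are named in the submitters' processing notes (versions not given in the sources used here). The authors tested their read counts, not used here, with DESeq2. FPKM divides reads by library total and gene length, so levels depend on the transcript lengths used and fold changes of low genes are damped by the pseudocount.

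From the deposited FPKM, whole reads were solved (tolerance 0.005 reads or 9e-08 of the reads, 23841 of 23842 genes above 0), giving library totals of 35586261 to 40040249 reads with OVA-T4 + TGFβ and 35839293 to 41597929 with OVA-T4, with 1 read per kb worth 0.0240 to 0.0281 FPKM. Gene positions are from GENCODE (GRCm38), which held 98.9% of the IDs. Genes averaging 0.5 FPKM or more were tested by limma 3.58.1 in R 4.3.3 with the variance trend on log2(FPKM + 0.5), checked on simulated data. That check had far fewer changed genes than the real data. It recovered 53.3% of 1.5-fold, 77.1% of 2-fold and 90.2% of 4-fold changes, so small changes can be missed. Of its calls, 4.08% were unchanged genes. Similarity was searched with blastn 2.17.0.

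Deviations from the group means of same-numbered libraries correlated at 0.179, 0.205, 0.419 and 0.505 (different numbers: -0.489 to 0.254). OVA-T4 + TGFβ replicate 1 correlated more with OVA-T4 replicate 4 (0.246) than with OVA-T4 replicate 1. OVA-T4 + TGFβ replicate 2 correlated more with OVA-T4 replicate 3 (0.239) than with OVA-T4 replicate 2. The values thus set replicates 1 and 4 apart from 2 and 3, and do not settle pairing by number. The block by replicate number was taken from these data and not the labels, and the main fit left it out. Alternatives changed the pseudocount, filter, scaling, test, block, gene set or left out 1 library each. Named are all members, all tested neighbours, the partner genes with the 3 largest changes and the GTPase with the largest change in each direction, and the 5 genes most like the family. Members and lists were chosen with earlier results of these data known.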

Additional observations from a re-analysis of the deposited data

Results flagged for a closer look

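Among 52 groups of 4 libraries, 2 held a library far from the other 3, and chance alone gives about 1 in 20. Map1lc3a had 8.73 FPKM in OVA-T4 + TGFβ replicate 3, while the other 3 libraries of that group were at 5.68 to 5.82 FPKM, a gap of 0.953 of the range of the group. Map1lc3b had 20.4 FPKM in OVA-T4 replicate 2, while the others of its group were at 22.9 to 23.0 FPKM, a gap of 0.931 of the range. No GIMAP gene had such a library in either group.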

How the results depend on the processing

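Gimap5, Gimap6, Gimap7 and Gimap8 kept their direction and their call in all of the 19 alternatives, with log2 fold changes of -0.57 to -0.37, -0.70 to -0.50, -1.77 to -1.61 and 0.49 to 0.70. With the replicate block 2 GIMAP genes were higher instead of 1, since Gimap3 was added, and the block changed no other call among the 8. Gimap1 lost its call in 10 alternatives (adjusted p from limma 0.0633 to 0.217), among them TPM scaling (-0.18) and quantile normalization (-0.14). Gimap9 turned to -0.06 after scaling by the median of ratios and to -0.01 without OVA-T4 replicate 4 (-0.01 to 0.09 when 1 library was left out). The lower GIMAP genes numbered 3 to 5, and 3 or 4 when 1 library was left out. The causes were not tested. The order of levels by other lengths was chosen after seeing the data. The ratio of summed FPKM was 0.834 to 0.945 over the scalings and 0.859 to 0.940 when 1 library was left out. Depth was no narrow limit, since the lowest GIMAP value rested on 531 reads, and counting error alone is covered by such numbers.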
